A study of Mus musculus with 12 samples.

Results

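The genes described here are 44 genes of the cell cycle and of proliferation, taken by their symbols. They fall by role into 8 cyclins and kinases of G1, 5 inhibitors of cyclin-dependent kinases, 11 genes of S phase and 20 genes of G2 and M phase. All 44 were found in both deposited tables, among 19091 genes in F1 and 26023 genes in F3. The filter on low counts left all 44 to be tested in F1 and 43 in F3, where Cdkn2a did not pass it.

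The libraries were made from prostate messenger RNA of male mice descended from females that were given chlordecone, also called kepone, while pregnant. Chlordecone is an organochlorine insecticide. The pregnant females, the F0 generation, received 100 µg/kg/day between E6.5 and E15.5 of gestation. The F1 chlordecone group (3 libraries) holds sons of the dosed females, and the F3 chlordecone group (3 libraries) holds males bred on from those F1 offspring. The F1 control group (2 libraries analysed, the library of control 3 not being analysed here) and the F3 control group (3 libraries) are labelled only as controls of the same generation. The sources used here do not give the strain, the age, what the control females received, whether a library is 1 animal or a pool, or any sharing of a litter or of a dosed female. The p-values therefore measure the spread between these libraries only.

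A cell enters a division cycle when D-type cyclins bind CDK4 and CDK6 and, with cyclin E and CDK2, release E2F factors from the retinoblastoma protein. E2F factors switch on the enzymes and helicases of DNA replication in S phase, and a second wave of genes, read through CHR promoter elements and FOXM1, makes the machinery of mitosis. In the adult prostate most epithelial cells are at rest, and androgens keep the secretory cells differentiated.

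Total counts ran from 17228539 to 28061760 in F1 libraries and from 71672418 to 114762135 in F3 libraries, so the precision for a low gene is better in F3. Levels are given as CPM, the counts scaled to library size with TMM factors. The prostate label was checked against 9 luminal prostate markers, led by Pbsn, all present in both tables, whose summed level was 52580 to 102425 CPM in F1 and 88952 to 106892 CPM in F3. The low F1 value was that of chlordecone 2 alone, the other F1 libraries lying at 86386 CPM or more. Chlordecone 2 also had the highest F1 sums of 8 basal epithelium markers (325 against 201 to 225 CPM), of 5 adipose markers (232 against 22.4 to 70.5 CPM) and of 6 peripheral nerve markers (205 against 57.5 to 113 CPM). Markers of neighbouring organs differed widely between F1 libraries. The sum of 8 seminal vesicle markers (Svs1 to Svs6 and Pate4, none at 0 in every library) was 118645 and 121227 CPM in F1 control 1 and 2 and 187106, 430511 and 528819 CPM in F1 chlordecone 1, 2 and 3, against 10.01 to 71.1 CPM in F3. The sum of 5 vas deferens and epididymis markers was 105 and 106 CPM in the F1 controls and 44533.5, 225 and 14554 CPM in F1 chlordecone 1, 2 and 3. For smooth muscle, 8 markers summed to 4599 and 4476 CPM and to 13596, 5899 and 8470 CPM in the same order. The part of these tissues in the F1 results below was not tested. In bulk tissue, fewer cells of a type and less RNA per cell cannot be told apart.

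None of the 44 genes passed edgeR's quasi-likelihood test after Benjamini-Hochberg adjustment in either generation, at a threshold of 0.05. The count was 0 of 44 in F1, where 0.0281% of all genes tested passed, and 0 of 43 in F3, where 0.0596% passed. At an unadjusted p under 0.05 in edgeR, 2 members were higher and 0 lower in F1, beside 7.93% of all genes higher and 3.60% lower. In F3 there were 2 higher and 3 lower, beside 4.97% and 5.64% of all genes. The chlordecone and control libraries did not overlap for 7 members in F1, 4 higher and 3 lower. That was 15.9% of the members, against 31.3% of all genes tested, 16.2% higher and 15.1% lower. In F3 they did not overlap for 6 members, 2 higher and 4 lower, which was 14% of those tested, against 16.6% of all genes, 8.34% higher and 8.25% lower. DESeq2 called 1 member in F1, Ccnd1, where it called 3.89% of all genes, and 2 in F3, Ccnd1 and Cdk6, where it called 1.28%. The roles differed in their medians, and Ccnd1 was the only member called for a chlordecone difference that differed between generations.

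**Figure D1:**
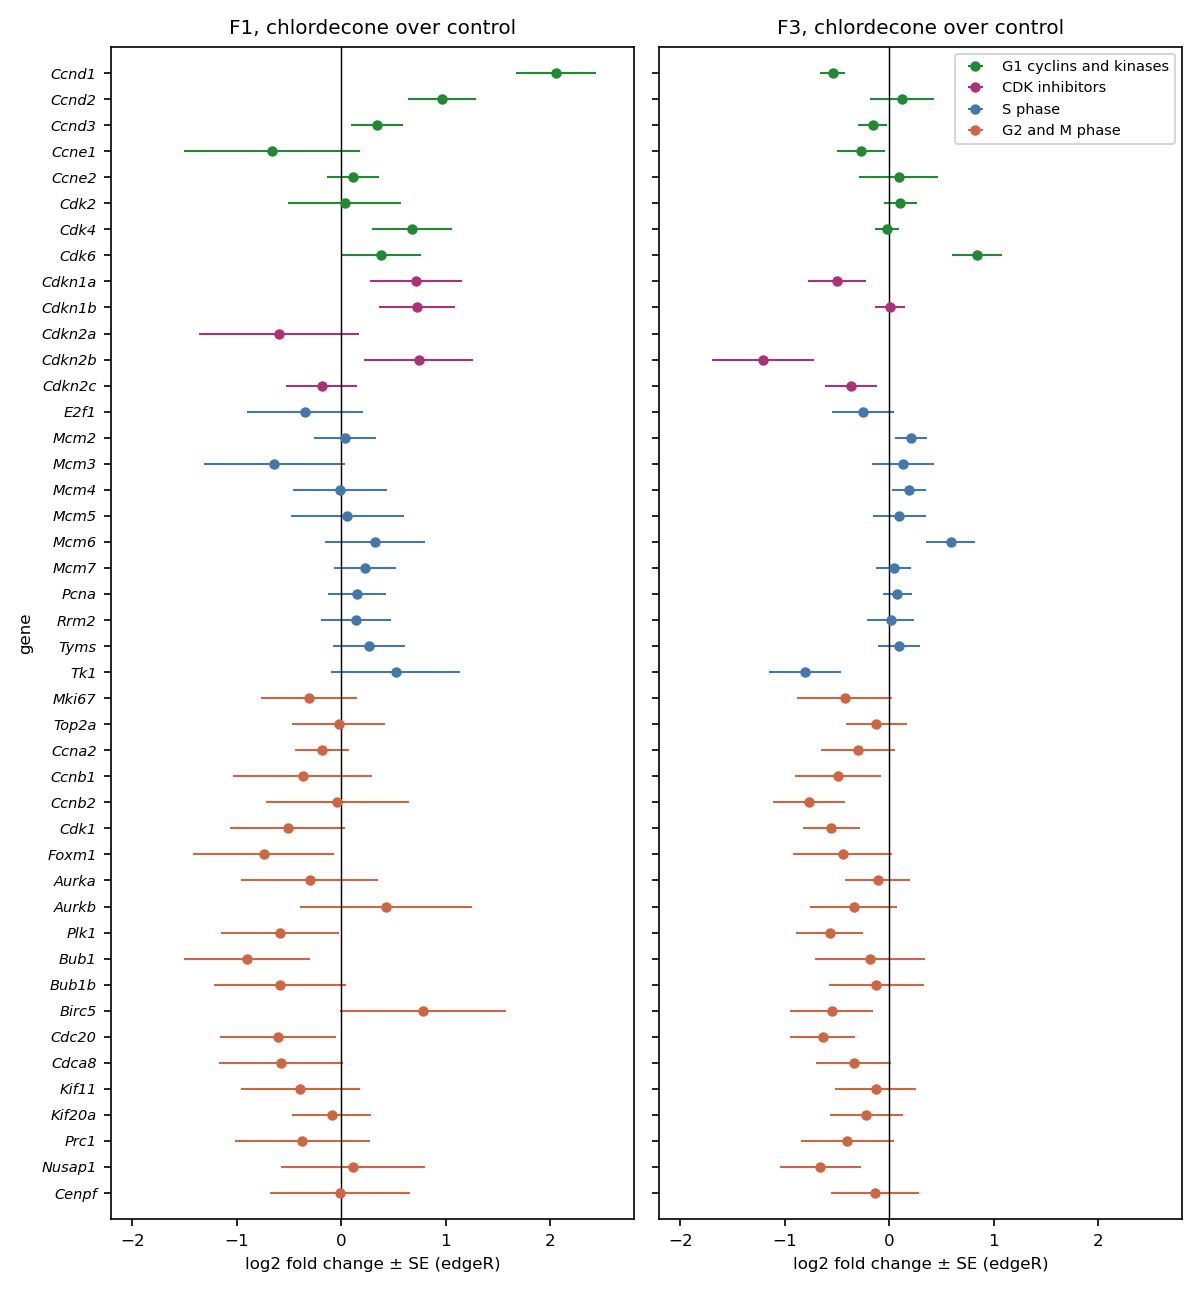
The log2 fold change of chlordecone over control (horizontal axis, edgeR, error bars ± SE) is plotted for each member (vertical axis), with F1 at left and F3 at right and colours for the 4 roles; Cdkn2a has no point in F3. Ccnd1 lies at 2.06 in F1 and at -0.54 in F3, and all 20 G2 and M phase genes lie below 0 in F3.

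Cyclin D1, encoded by Ccnd1 on chromosome 7 (144929931 to 144939925, minus strand, GRCm38), is the D-type cyclin that couples growth signals to CDK4 and CDK6. In F1 it was at 25.5 and 29.4 CPM in control 1 and 2 and at 131, 67.8 and 143 CPM in chlordecone 1, 2 and 3. All 3 chlordecone libraries lay above both controls, and chlordecone 2 lay nearest to them. The means were 27.4 ± 2.73 CPM (SD, n = 2) and 114 ± 40.5 CPM (SD, n = 3), a 4.16-fold difference. The log2 fold change was 2.06 (SE 0.38), with an unadjusted p of 0.000646 and an adjusted p of 0.152 in edgeR and an adjusted p of 2.13e-05 in DESeq2. In 1 fit of all libraries of both generations, where edgeR called 5.48% of all genes in F1, its adjusted p was 0.00365. Left without chlordecone 2, edgeR gave 2.32 (adjusted p = 0.000858). Without control 1, control 2, chlordecone 1 or chlordecone 3 in turn it missed the threshold, at adjusted p of 0.845, 0.874, 0.218 and 0.446 in edgeR, with log2 fold changes of 1.86 or more. Left with chlordecone 2 alone in its group, whose spread then comes from the controls, edgeR gave 1.3 (adjusted p = 0.00116).

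In F3 the same gene was at 47.7, 54.2 and 53.9 CPM in control 1, 2 and 3 and at 37.3, 37.1 and 32.6 CPM in chlordecone 1, 2 and 3. Every chlordecone library lay below every control. The means were 51.9 ± 3.67 CPM and 35.7 ± 2.62 CPM (SD, n = 3 each), and the log2 fold change was -0.54 (SE 0.12). The adjusted p was 0.310 in edgeR and 0.0477 in DESeq2. The exons of Ccnd1 share 1100 of 4709 bases with Lto1 on the other strand. The sources used here do not state the strand setting of the counting, so the reads of Ccnd1 are uncertain. Lto1 itself lay between 37.2 and 39.2 CPM in all 6 F3 libraries. In F1 it was looked for under the symbols Lto1 and Oraov1 and not found, so its F1 level is not known here.

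The chlordecone difference of Ccnd1 was itself compared between generations in 1 edgeR fit of all 11 libraries. The F3 minus F1 difference was -2.52 on the log2 scale (SE 0.35), with an adjusted p of 0.00768 in edgeR and 4.84e-10 in DESeq2. It was the only one of 44 members called in that edgeR comparison, where 0.718% of all genes passed, and DESeq2 called 6.90% of all genes. Next by p among the members was Cdkn2b, at -1.87 (SE 0.76, adjusted p = 0.229 in edgeR). Leaving out each library in turn kept the Ccnd1 difference between -2.73 and -2.31, with adjusted p in edgeR from 8.16e-05 to 0.0514. The call was lost only without F1 control 1, the highest of these p-values. The fit takes 1 spread per gene from both generations, whereas separate fits gave Ccnd1 an SE of 0.38 in F1 and 0.12 in F3. In the joint fit the F1 difference of Ccnd1 had an adjusted p of 0.00365 in edgeR, against 0.152 in the fit of F1 alone. The p-value of the generation difference thus rests on that shared spread.

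Among the other D-type cyclins, Ccnd2 was at 14.7 and 8.58 CPM in the F1 controls, against 25.1, 22.6 and 20.3 CPM in F1 chlordecone 1, 2 and 3. The groups did not overlap, and the log2 fold change was 0.96 (SE 0.32, unadjusted p = 0.0177, adjusted p = 0.321 in edgeR). In F3 Ccnd2 was at 3.77, 7.23 and 9.60 CPM in controls and 8.12, 6.85 and 7.46 CPM in chlordecone libraries, and all chlordecone values lay inside the range of the controls. Ccnd3, the third D-type cyclin, was at 28.2 and 23.9 CPM in F1 controls against 34.7, 35.3 and 29.3 CPM, again without overlap, at a log2 fold change of 0.34 (SE 0.25, adjusted p = 0.657 in edgeR). Its F3 values were 104, 96.6 and 78.7 CPM in controls and 77.2, 90.2 and 82.5 CPM in chlordecone libraries, which overlapped. All 3 D-type cyclins thus lay above the controls in every F1 chlordecone library, as did 16.2% of all genes tested. In F3 Ccnd1 had groups apart, in the opposite direction, and Ccnd2 and Ccnd3 did not. Ccne1, cyclin E1, which activates CDK2, was at 3.62 and 1.36 CPM in F1 controls and 1.82, 0.709 and 2.16 CPM in chlordecone libraries. In F3 it was at 3.13, 2.57 and 2.29 CPM and at 2.26, 2.47 and 1.88 CPM, overlapping in both generations.

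Cdk6, a kinase partner of the D-type cyclins on chromosome 5 (3341485 to 3531008, plus strand, GRCm38), was at 4.67, 3.61 and 3.17 CPM in F3 control 1, 2 and 3 and at 8.65, 5.90 and 5.94 CPM in F3 chlordecone 1, 2 and 3. Every chlordecone library lay above every control, by 1.79-fold between the groups, with means of 3.82 ± 0.774 and 6.83 ± 1.57 CPM (SD, n = 3 each). The log2 fold change was 0.84 (SE 0.24), with an adjusted p of 0.389 in edgeR and 0.0450 in DESeq2. In F1 it was at 19.8 and 16.9 CPM in controls and 17.3, 36.5 and 17.9 CPM in chlordecone libraries, so that only chlordecone 2 stood apart. Cdk4, the other partner, was at 17.1 and 21.9 CPM in F1 controls, against 40.1, 17.4 and 36.2 CPM in chlordecone 1, 2 and 3. For Cdk4 chlordecone 1 and 3 were high and chlordecone 2 lay with the controls, the reverse of Cdk6. Its F3 values ran from 105 to 122 CPM with overlapping groups. Cdk4 gave a log2 fold change of 0.68 (SE 0.38, adjusted p = 0.558 in edgeR) in F1 and -0.02 (SE 0.12) in F3. Cdk2 and Ccne2 overlapped in both generations, with log2 fold changes from 0.03 to 0.11.

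Over the 8 G1 cyclins and kinases the median log2 fold change was 0.36 in F1, with 7 above 0, and 0.03 in F3, with 4 above 0, beside medians over all genes of 0.02 and -0.01. The F1 sum of the role was 141 and 130 CPM in controls and 283, 215 and 277 CPM in chlordecone libraries, the same order of libraries as in the sum of the smooth muscle markers given above. Compared per length of exon, the most abundant members in the F3 controls were Cdk4 at a mean level of 34.96, Ccnd1 at 11.03 and Ccnd3 at 10.6 CPM per kilobase. In the F1 controls they were the inhibitors Cdkn2c at 11.7 and Cdkn1b at 10.1 and the S phase gene Pcna at 8.88 CPM per kilobase, and Ccnd1 was at 5.83. Over all 5 F1 libraries, chlordecone included, Ccnd1 had a mean level of 16.9 CPM per kilobase.

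**Figure D2:**
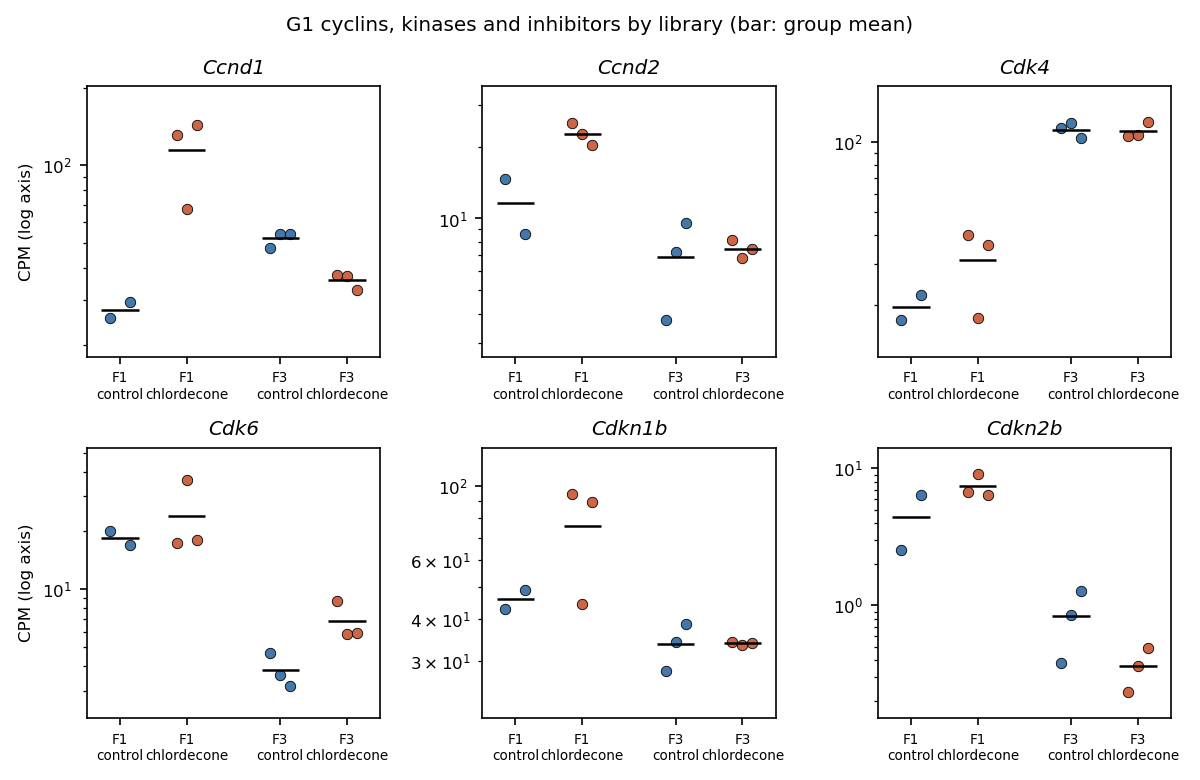
The level of 6 G1 genes in each library (points, CPM on a log axis) is plotted by group, controls in blue and chlordecone in orange, with bars at the group means. Ccnd1 lies above both controls in all 3 F1 chlordecone libraries and below all controls in F3, whereas Cdk4 and Cdkn1b have 1 F1 chlordecone library, chlordecone 2, at the level of the controls.

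Cdkn1b encodes p27, which binds and holds back CDK2 in resting cells. In F1 it was at 43.0 and 48.8 CPM in controls, against 94.4, 44.3 and 89.3 CPM in chlordecone 1, 2 and 3, so chlordecone 1 and 3 were high and chlordecone 2 lay between the controls. Its log2 fold change was 0.73 (SE 0.36, adjusted p = 0.495 in edgeR). F3 values were 27.8, 34.0 and 38.7 CPM in controls against 34.0, 33.5 and 33.8 CPM, at 0.01 (SE 0.14). Cdkn1a, which encodes p21, the inhibitor that p53 induces, was at 5.45 and 6.89 CPM in F1 controls and at 14.5, 6.65 and 9.21 CPM in chlordecone libraries, with chlordecone 2 again among the controls. In F3 Cdkn1a was at 3.46, 7.03 and 4.99 CPM and at 4.27, 3.32 and 3.36 CPM, an overlap in the other direction.

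Cdkn2b encodes p15, an inhibitor of CDK4 and CDK6, and lies on chromosome 4 (89306299 to 89311039, minus strand, GRCm38). It was at 2.52 and 6.37 CPM in F1 controls and at 6.77, 9.11 and 6.44 CPM in F1 chlordecone libraries, all above the higher control, chlordecone 1 and 3 by a small margin. In F3 it was at 0.381, 0.849 and 1.27 CPM in controls and at 0.233, 0.360 and 0.490 CPM in chlordecone libraries, where control 1 lay among the chlordecone libraries. The F3 log2 fold change was -1.21 (SE 0.49, unadjusted p = 0.0386, adjusted p = 0.457 in edgeR). Cdkn2c, which encodes p18 of the same family, was at 28.6 and 34.4 CPM in F1 controls and 16.9, 32.8 and 33.3 CPM in chlordecone libraries, only chlordecone 1 being low. Its F3 values were 2.20, 3.52 and 2.56 CPM against 2.03, 1.94 and 2.44 CPM, which overlapped. Cdkn2a, the source of p16 and p19ARF, was at 0.783 to 4.45 CPM in F1 and at 0.0180 to 0.158 CPM in F3, where it was too low to test. The median of the 5 inhibitors was 0.71 in F1, with 3 above 0, and that of the 4 tested in F3 was -0.43, with 1 above 0.

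The F1 calls among these genes depended on chlordecone 2. Without it edgeR called 5 members, where 15.0% of all genes passed: Ccnd1, Cdkn1b at 0.99 (SE 0.16, adjusted p = 0.00981), Cdk4 at 0.96 (SE 0.21, adjusted p = 0.0240), Cdc20 at -1.39 (SE 0.33, adjusted p = 0.0311) and Cdca8 at -1.43 (SE 0.35, adjusted p = 0.0359). Chlordecone 1 and 3, the libraries that remain, are those with the 2 highest sums of vas deferens markers. With chlordecone 2 alone, a check chosen after seeing the data, the called members were Ccnd1, Birc5 at 1.86 (adjusted p = 0.0366 in edgeR) and Cdk6 at 0.99 (adjusted p = 0.0308), where 6.57% of all genes passed. In that check Cdk4 was at -0.16, Cdkn1b at -0.051 and Cdc20 at 0.28, each with the opposite sign. Both checks share the same 2 controls.

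Over the 11 S phase genes the median log2 fold change was 0.14 in F1, with 8 above 0, and 0.09 in F3, with 9 above 0. The F3 median was -0.055 with 5 above 0 without control 2, and -0.034 with 4 above 0 without chlordecone 3. Their summed level was 87.2 and 89.98 CPM in F1 controls and 98.6, 87.3 and 105 CPM in chlordecone libraries. In F3 it was 111, 85.4 and 85.1 CPM in controls and 95.5, 90.3 and 107 CPM in chlordecone libraries, all within the range of the controls.

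Mcm6, a subunit of the MCM helicase that unwinds DNA at replication forks, lies on chromosome 1 (128331590 to 128359664, minus strand, GRCm38) and had the lowest S phase p-value in F3. It was at 7.66, 4.46 and 7.87 CPM in F3 controls and at 9.34, 9.67 and 11.1 CPM in chlordecone libraries. The groups did not overlap, and the log2 fold change was 0.59 (SE 0.23, unadjusted p = 0.0345, adjusted p = 0.456 in edgeR). In F1 it was at 4.72 and 3.56 CPM against 5.35, 5.94 and 4.23 CPM, with overlap. The 130 bases before its RefSeq start site (GRCm38.p6, chr1:128359706-128359835, minus strand) are shown because they hold the E2F letters on both strands. Capitals mark matches to TTTNNCGC or its reverse complement, which overlap each other in the first run of capitals, and CCAAT or its reverse complement.
Mcm6: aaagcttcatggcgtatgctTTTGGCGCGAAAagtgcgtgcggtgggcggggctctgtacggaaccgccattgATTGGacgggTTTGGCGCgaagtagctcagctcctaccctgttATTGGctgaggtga

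The groups of the other MCM subunits overlapped in F3. Mcm2 was at 10.8 and 12.7 CPM in F1 controls and 13, 11.2 and 12 CPM in chlordecone libraries, and at 15.1, 11.4 and 12.8 CPM against 14.9, 13.9 and 16.7 CPM in F3. Mcm3 was at 3.25 and 3.51 CPM in F1 controls and 2.73, 1.09 and 2.67 CPM in chlordecone libraries, all lower, at a log2 fold change of -0.64 (SE 0.67, adjusted p = 0.778 in edgeR). In F3 Mcm3 was at 3.54, 1.78 and 3.42 CPM against 2.85, 2.90 and 3.87 CPM, with overlap. Mcm7 overlapped in both generations, at 11.5 to 15.4 CPM in F1 and 12.1 to 16.5 CPM in F3. Mcm4 and Mcm5 had log2 fold changes from -0.01 to 0.19, with overlapping groups in both generations.

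Pcna, the sliding clamp of the replicative polymerases, was at 20.4 and 22.2 CPM in F1 controls and 21.3, 20.1 and 29.4 CPM in chlordecone libraries. In F3 it was at 19.3, 19.0 and 15 CPM against 19.1, 18.5 and 18.6 CPM. The groups overlapped in both generations, with log2 fold changes of 0.15 (SE 0.28) and 0.08 (SE 0.14). Tk1, the thymidine kinase of the salvage path, had a wide range. It was at 4.30 and 4.87 CPM in F1 controls and 10.4, 2.51 and 6.81 CPM in chlordecone 1, 2 and 3, and at 16.7, 12.4 and 6.09 CPM in F3 controls and 5.54, 6.10 and 8.42 CPM in F3 chlordecone libraries. Both sets overlapped, and the F3 log2 fold change was -0.81 (SE 0.35, unadjusted p = 0.0459, adjusted p = 0.467 in edgeR). Tyms, thymidylate synthase, was at 9.01 and 8.29 CPM against 10.7, 8.18 and 12.4 CPM in F1 and at 6.97, 7.10 and 5.74 CPM against 6.73, 5.73 and 8.65 CPM in F3. Rrm2, a subunit of ribonucleotide reductase, and E2f1, the transcription factor, overlapped in both generations, at log2 fold changes from -0.35 to 0.14.

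In F3 all 20 G2 and M phase genes were highest in control 1, the library that was highest for 17.4% of all genes tested. Of the 20, 12 were lowest in control 2, the library that was lowest for 25.3% of all genes tested. The summed level of the 20 was 85.6, 32.8 and 46.8 CPM in F3 control 1, 2 and 3 and 41.9, 44.8 and 44.2 CPM in chlordecone 1, 2 and 3. The chlordecone libraries lay close together between control 2 and control 3, and control 1 lay far above. All 20 log2 fold changes were below 0, with a median of -0.37, where 48.8% of all genes lay above 0, and 0 were called. Without control 1 the median was 0.21 with 15 of 20 above 0, and 0 of the 44 genes were called where 0.236% of all genes passed. Without control 2 it was -0.66 with 20 of 20 below 0. In control 1 the sum of 8 smooth muscle markers was 1383 CPM, against 4574 and 3845 CPM in control 2 and 3 and 1779 to 2749 CPM in chlordecone libraries. The sum of 8 fibroblast and matrix markers was 251 CPM in control 1, against 541 and 558 CPM in control 2 and 3 and 363 to 460 CPM. Of 12 lymphocyte markers the sum was 7.52 CPM in control 1 and 8.23 to 12.2 CPM in the other F3 libraries. A wider list, 17 leukocyte markers, had another order. It summed to 108, 143 and 74.3 CPM in control 1, 2 and 3 and to 63.2, 67.3 and 120 CPM in chlordecone 1, 2 and 3. The part of these cell types in the high values of control 1 was not tested.

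**Figure D3:**
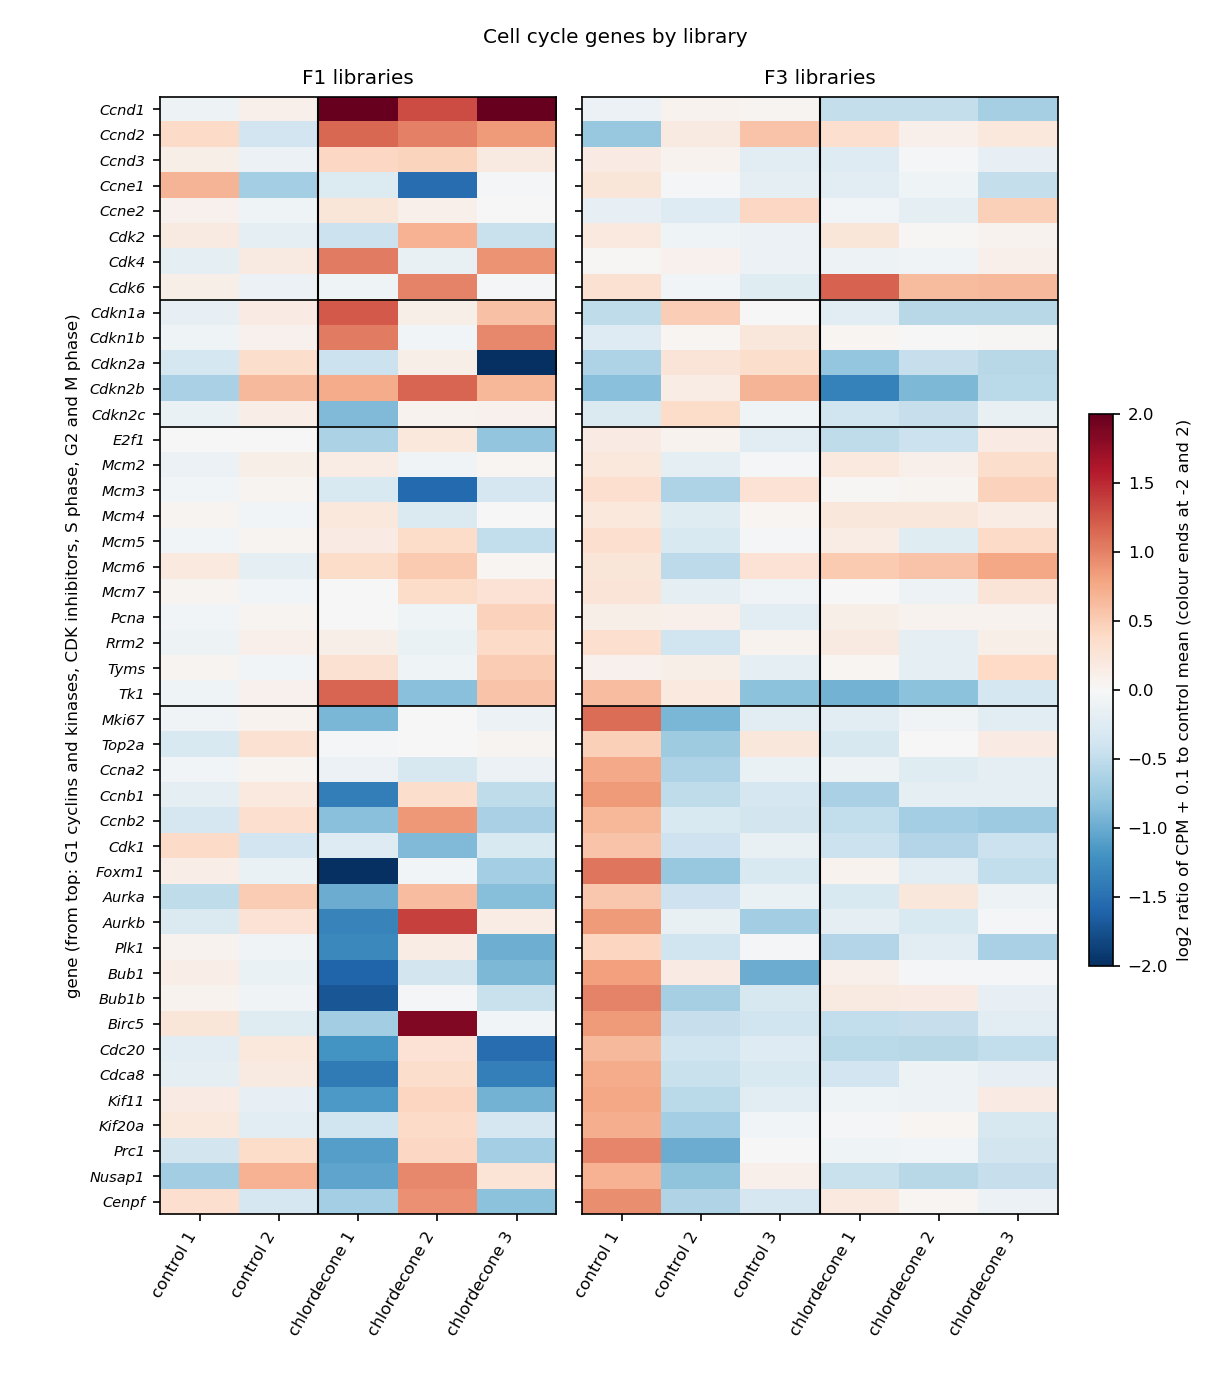
Each cell gives the log2 ratio of a member's level (CPM + 0.1) in 1 library to the mean of the controls of its generation (colour, red higher and blue lower, ending at -2 and 2), with genes on the vertical axis by role and libraries on the horizontal axis. The column of F3 control 1 is red for all 20 G2 and M phase genes, and in F1 chlordecone 1 holds the lowest value for 15 of them.

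In F1 the 20 genes summed to 125 and 138 CPM in control 1 and 2 and to 73.2, 166 and 90.6 CPM in chlordecone 1, 2 and 3. Chlordecone 1 and 3 lay below both controls and chlordecone 2 above both. Chlordecone 2 was highest for 13 of 20, beside 24.7% of all genes tested, and chlordecone 1 was lowest for 15 of 20, beside 21.6% of all genes. The median log2 fold change was -0.34, with 17 below 0, where 51.4% of all genes lay above 0. It was -0.87 with 20 of 20 below 0 without chlordecone 2, and 0.35 with 13 of 20 above 0 with chlordecone 2 alone. The 2741 genes with a mean under 0.1 CPM in F3 had a median F1 level of 1.05 and 1.12 CPM in control 1 and 2 and 0.475, 1.47 and 0.690 CPM in chlordecone 1, 2 and 3, the same order of libraries. Of 8 spermatogenic markers 7 were in the F1 table, none at 0 in every library, and summed to 31.4 to 51.5 CPM, also highest in chlordecone 2 and lowest in chlordecone 1. The 5 in the F3 table summed to 0.0269 to 0.580 CPM. The part of these low transcripts, and of the basal, adipose and nerve markers that were also highest in chlordecone 2, in the F1 mitotic values was not tested.

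**Figure D4:**
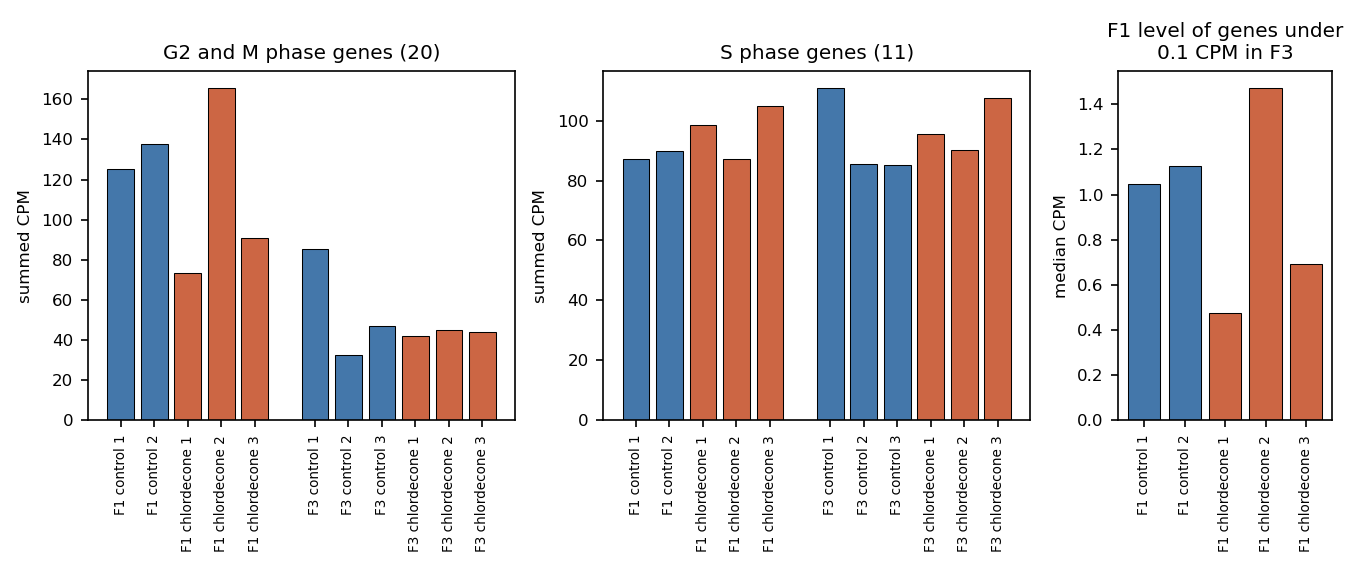
Bars give the summed level (CPM) of the 20 G2 and M phase genes (left) and of the 11 S phase genes (middle) in each library, and the median F1 level (CPM) of 2741 genes with a mean under 0.1 CPM in F3 (right), controls in blue and chlordecone in orange. The mitotic sum is highest in F3 control 1 at 85.6 CPM within F3 and in chlordecone 2 at 166 CPM within F1, and the right panel has the F1 libraries in the same order as the left.

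Mki67, which encodes the Ki-67 antigen of cycling cells, was at 9.92, 2.36 and 3.91 CPM in F3 control 1, 2 and 3 and at 3.87, 4.31 and 3.88 CPM in chlordecone libraries. The controls spanned the chlordecone values, and the log2 fold change was -0.43 (SE 0.46, adjusted p = 0.730 in edgeR). In F1 Mki67 was at 6.39 and 7.08 CPM in controls and 3.52, 6.65 and 6.17 CPM in chlordecone libraries, only chlordecone 1 being clearly low. Top2a, the topoisomerase that untangles sister chromatids, was at 15.3, 6.61 and 12.8 CPM against 8.74, 10.9 and 12.3 CPM in F3. Its F1 values were 4.24 and 6.51 CPM against 5.11, 5.29 and 5.48 CPM. The chlordecone libraries lay inside the control range in both generations for Top2a.

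Cdk1, the kinase that drives entry into mitosis, was at 7.68, 3.86 and 4.64 CPM in F3 controls and at 3.8, 3.4 and 3.82 CPM in chlordecone libraries. All chlordecone values lay below all controls, the nearest at 3.82 and 3.86 CPM, and the log2 fold change was -0.55 (SE 0.27, adjusted p = 0.4998 in edgeR). Ccnb2, a B-type cyclin that binds CDK1, was at 2.50, 1.23 and 1.17 CPM against 1.07, 0.918 and 0.887 CPM in F3, also without overlap, at -0.77 (SE 0.35, adjusted p = 0.481 in edgeR). Cdc20, which activates the anaphase-promoting complex, was at 4.63, 2.18 and 2.42 CPM against 1.97, 1.95 and 2.03 CPM in F3, at -0.63 (SE 0.31, adjusted p = 0.501 in edgeR). These were the 3 of 20 mitotic genes with F3 groups apart, beside 8.25% of all genes lower without overlap. Without F3 control 1 their log2 fold changes were -0.21 for Cdk1, -0.32 for Ccnb2 and -0.21 for Cdc20. In F1 Cdk1 was at 5.92 and 3.42 CPM against 3.76, 2.4 and 3.64 CPM, and Ccnb2 was at 3.14 and 5.01 CPM against 2.18, 7.31 and 2.49 CPM. Cdc20 in F1 was at 11.2 and 14.9 CPM in controls, against 5.58, 15.9 and 4.42 CPM in chlordecone 1, 2 and 3. Chlordecone 1 and 3 had less than either control and chlordecone 2 more, the pattern of the mitotic sum.

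Bub1, a kinase of the spindle checkpoint, had the lowest F1 p-value of the role. It was at 4.98 and 4.12 CPM in F1 controls and 1.43, 3.49 and 2.39 CPM in chlordecone libraries, without overlap, at -0.90 (SE 0.60, adjusted p = 0.628 in edgeR). In F3 Bub1 was at 0.857, 0.509 and 0.174 CPM against 0.485, 0.430 and 0.434 CPM. Ccna2, cyclin A2 of S phase and G2, was at 18.3 and 19.9 CPM against 17.6, 15.3 and 17.5 CPM in F1, lower without overlap at -0.18 (SE 0.26). Its F3 values were 4.06, 1.5 and 2.13 CPM against 2.20, 1.99 and 2.06 CPM. Foxm1, the transcription factor of mitotic genes, was at 5.40 and 4.50 CPM against 1.11, 4.74 and 3.04 CPM in F1 and at 4.12, 1.09 and 1.54 CPM against 2.01, 1.63 and 1.33 CPM in F3. Both Foxm1 sets overlapped. The other 12 genes of the role, which encode mitotic kinases and cyclin B1 (Aurka, Aurkb, Plk1, Bub1b, Ccnb1), the chromosomal passenger proteins Birc5 and Cdca8, the motors Kif11 and Kif20a, the spindle proteins Prc1 and Nusap1 and the kinetochore protein Cenpf, overlapped in both generations. Birc5, Aurkb and Nusap1 were the only ones of the 20 with an F1 log2 fold change above 0, at 0.78 (SE 0.80), 0.43 (SE 0.82) and 0.11 (SE 0.69), and each was highest in chlordecone 2.

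The members' promoters were searched for cell cycle elements, in windows of 250 bases before and 50 bases after each RefSeq start site (GRCm38.p6). The part of such elements in the high values of F3 control 1 was not tested. A window was found for 36 of the 44 genes, and Ccna2, Ccnd1, Ccnd2, Ccne2, Mcm4, Kif20a, Aurkb and Foxm1 had none. The CHR letters TTTGAA, on either strand, were in 12 of 16 G2 and M phase genes (75%), in 1 of 10 S phase genes, in 1 of 5 inhibitors and in 0 of 5 G1 genes, against 20.2% of 27025 genes. CCAAT was in 14 of 16 G2 and M phase genes (87.5%) and 7 of 10 S phase genes, against 41.1% of all genes, and both motifs together in 12 of 16 against 7.97%. The E2F letters TTTNNCGC were in 5 of 10 S phase genes, 2 of 5 G1 genes and 1 of 16 G2 and M phase genes (6.25%), against 5.93% of all genes. Matches may overlap one another, and a match is a description of the letters and not a measured site.

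The 130 bases before the start site are shown for 5 mitotic genes, all with a CHR match in these bases, to make the arrangement visible. Capitals mark matches to these 3 motifs on either strand. They come from chr4:118437344-118437473 on the minus strand (Cdc20), chr10:69352913-69353042 on the minus strand (Cdk1), chr11:99024190-99024319 on the minus strand (Top2a), chr19:37376252-37376381 on the plus strand (Kif11) and chr7:135716380-135716509 on the minus strand (Mki67), in GRCm38.p6.
Cdc20: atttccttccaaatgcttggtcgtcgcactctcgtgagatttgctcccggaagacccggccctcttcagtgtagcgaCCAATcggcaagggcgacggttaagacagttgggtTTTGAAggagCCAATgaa
Cdk1: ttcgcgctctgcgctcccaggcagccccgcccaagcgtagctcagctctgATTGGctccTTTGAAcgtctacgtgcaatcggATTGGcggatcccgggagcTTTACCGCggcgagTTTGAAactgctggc
Top2a: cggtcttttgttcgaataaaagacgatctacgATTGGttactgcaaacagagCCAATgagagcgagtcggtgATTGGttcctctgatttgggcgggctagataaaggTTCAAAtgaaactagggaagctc
Kif11: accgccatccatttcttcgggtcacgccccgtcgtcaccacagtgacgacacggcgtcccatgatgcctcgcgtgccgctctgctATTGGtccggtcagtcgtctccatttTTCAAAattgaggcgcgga
Mki67: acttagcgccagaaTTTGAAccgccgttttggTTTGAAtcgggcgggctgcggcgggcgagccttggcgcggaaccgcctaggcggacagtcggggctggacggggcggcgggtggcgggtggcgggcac
In Cdc20, Cdk1, Top2a and Kif11 a CHR match began between -23 and -15 from the start site, with a CCAAT match further upstream. Mki67 held a pair of CHR matches, at -116 and -98, and its CCAAT matches lay further upstream than the bases shown. Not all mitotic genes had this arrangement. In Cenpf, Cdca8, Plk1, Aurka and Bub1b the only CHR match began after the start site, at 3, 14, 31, 33 and 41.

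**Figure D5:**
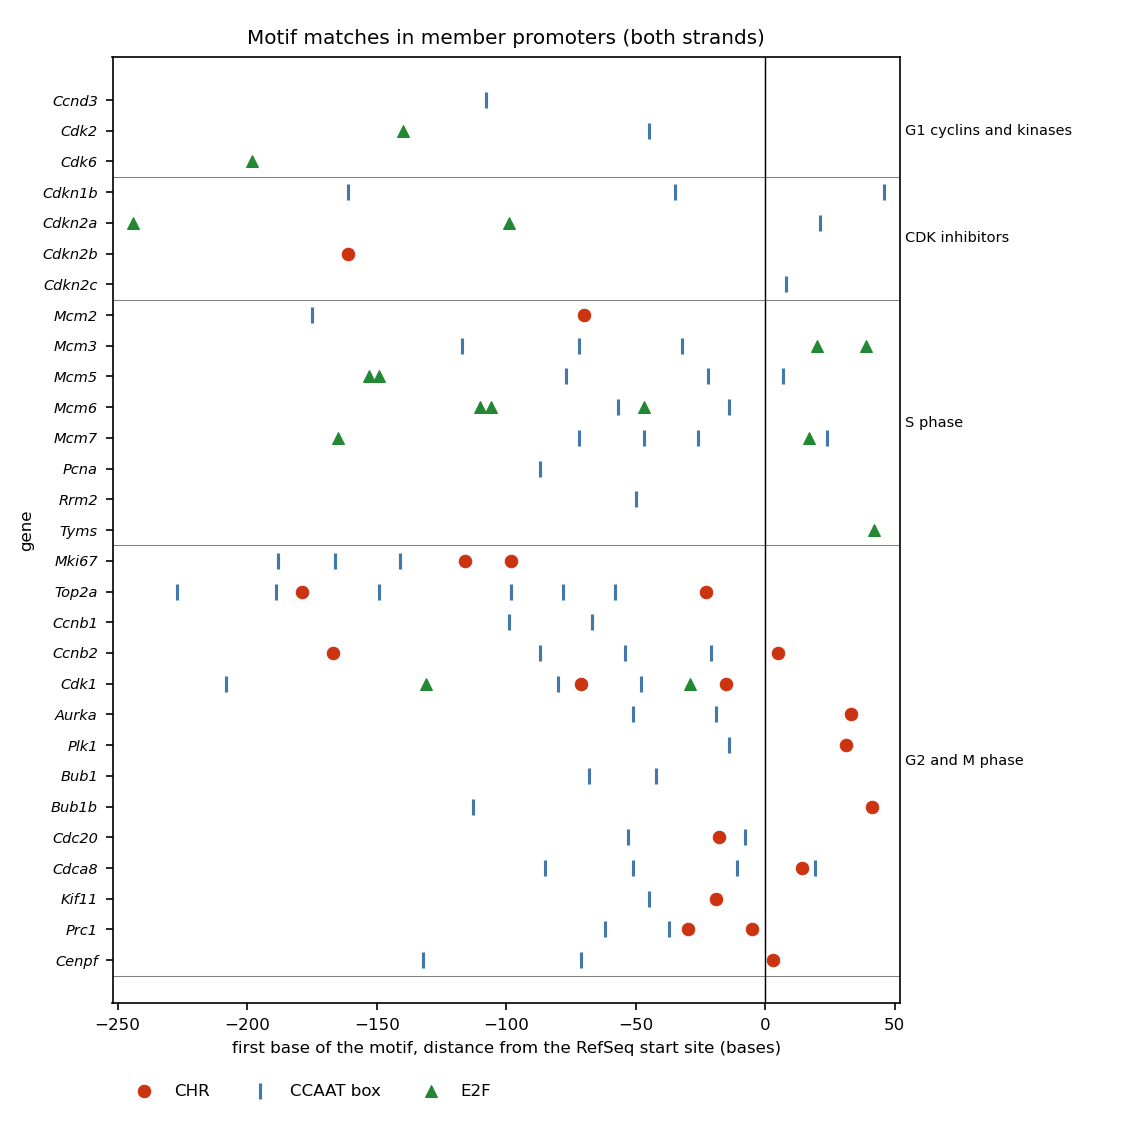
Each mark is a match to 1 motif (CHR, CCAAT box or E2F, both strands) in the promoter window of a member, by the distance of its first base from the RefSeq start site (horizontal axis, bases); genes stand on the vertical axis by role, and genes with no match or no window are left out. CHR marks are found in 12 of 16 G2 and M phase genes and in 2 of the 20 other genes with a window.

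Other genes of the cell cycle, listed by phase apart from the 44, gave 0 calls in edgeR in both generations. At an unadjusted p under 0.05 their counts are to be read beside 7.93% of all genes higher and 3.60% lower in F1, and 4.97% higher and 5.64% lower in F3. Of 31 further G1 genes tested in F1, 2 were higher at an unadjusted p under 0.05, Gadd45a, a growth arrest gene of the damage response (4.12 ± 0.200 and 17.2 ± 16.5 CPM, SD), and Btg2, an antiproliferative gene (10.5 ± 1.49 and 17.0 ± 1.3 CPM). In F3, 1 of 32 was higher, Lin54, the DNA-binding subunit of the DREAM complex, at a log2 fold change of 0.52 (SE 0.18, adjusted p = 0.421 in edgeR). Of 35 further S phase genes, 0 reached that level in F1 and 1 was lower in F3, Gmnn, the replication licensing inhibitor geminin (6.68 ± 0.329 and 5.09 ± 0.536 CPM). Of the further G2 and M phase genes, 1 of 55 was higher in F1, the checkpoint gene Bub3 at 0.64 (SE 0.27), and 1 of 53 was lower in F3, Ube2s, a ubiquitin-conjugating enzyme that works with the anaphase-promoting complex, at -0.43 (SE 0.11, adjusted p = 0.339 in edgeR). Their medians were -0.20 in F1 and -0.18 in F3, with 22 of 55 and 11 of 53 above 0. Control 1 of F3 was highest for 38 of those 53 genes and control 2 lowest for 29, beside 17.4% and 25.3% of all genes tested. The summed level of the 53 had another order, at 472, 526 and 452 CPM in F3 control 1, 2 and 3 and 446.3, 446.2 and 483 CPM in chlordecone libraries, with control 2 highest. In F1 the sum was 661 and 639 CPM in controls and 619, 616 and 701 CPM in chlordecone 1, 2 and 3, with chlordecone 2 lowest, unlike the sum over the 20 members. Counted gene by gene, F1 chlordecone 2 was highest for 25 of the 55 genes, beside 24.7% of all genes tested. Chlordecone 1 was lowest for 26 of the 55, beside 21.6% of all genes, as in the counts over the 20 members.

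Of the 44 members 19 share exon bases with another gene, 17 of them with a gene on the other strand, and 5 have a named pseudogene copy. The reads of Ccnd1, Ccnd2, Ccnd3, Ccne2, Cdk2, Cdk4, Cdk6, Cdkn1a, Mcm7, Tk1, Ccna2, Cdc20, Cdca8, Top2a, Foxm1, Plk1, Kif20a, Prc1 and Nusap1 are uncertain for the first reason, and those of Ccnd3, Pcna, Tyms, Ccnb1 and Ccnb2 for the second.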

How the data were processed

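The authors deposited raw read counts per Ensembl gene, 1 table for each generation. Per the submitters' processing notes they used mm10 with HTSeq 0.6.1, DESeq2 1.6.3, Bowtie2 2.1.0, TopHat2 2.0.14 and bcl2fastq 2.17.1.14. The sources used here state neither strand setting nor annotation release. Column letters C and K were taken to stand for control and kepone (chlordecone), and 0 columns were left over. F1 therefore set 2 controls against 3, where 3 were planned.

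Low genes were removed with filterByExpr (minimum count 10, minimum total 15), and libraries were scaled by TMM and compared, two-sided, with the edgeR 4.0.16 quasi-likelihood F test in R 4.3.3, adjusted over all genes tested. The generation difference used the genes in both tables, and because these were made separately, levels across them are descriptions. DESeq2 1.42.0 was an alternative, and the script was tested on simulated data. Coordinates and exon lengths are GENCODE M21 (GRCm38), matched by identifier. Replicate numbers were not used to pair the samples, since the labels state no pairing.

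Values in every library are given, by role, for members past the threshold, the 3 with the smallest p in each generation, the 2 highest in mean CPM, and Mki67, Top2a, Pcna, Cdkn1a and Ccnd1. Mcm7, and Cdk4 in F3, are given as ranges instead. Other cell cycle genes are named by smallest p, at most 3 a list. Members and lists were chosen with earlier results of these data known. Members called under an alternative, and Lto1, were named after their values were seen.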

Additional observations from a re-analysis of the deposited data

Results flagged for a closer look

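The chlordecone difference of Ccnd1 differed between generations by a test of the difference itself, in a fit that takes 1 spread per gene from both generations. F3 minus F1 was -2.52 on the log2 scale (SE 0.35, adjusted p = 0.00768 in edgeR), with all 3 F1 chlordecone libraries above both controls and all 3 F3 chlordecone libraries below all 3 controls. With F1 chlordecone 1 and 3 left out together, the difference was -1.82 (adjusted p = 0.00730 in edgeR). The summed seminal vesicle, vas deferens, smooth muscle, adipose, peripheral nerve and leukocyte markers also had F1 groups apart, higher with chlordecone. The leukocyte sum was 35.0 to 36.0 CPM in F1 controls and 51.5 to 316 CPM in chlordecone libraries. Endothelium markers (56.0 to 58.1 against 35.5 to 39.1 CPM) and erythroid precursor markers (7.13 to 7.45 against 2.22 to 5.40 CPM) were apart and lower with chlordecone. The part of all these markers in the Ccnd1 difference was not tested.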

How the results depend on the processing

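Where a group is left with 1 library, that library is assumed to vary like the other group. The cause of the changes below was not tested. In F1 the count of members called was 0 in edgeR, where 5 genes were called in all. It was 1, Ccnd1, with DESeq2 (700 in all) and in 1 fit of all libraries (930 in all). When each chlordecone library was left out in turn it ranged from 0 to 5, where 0 to 2604 genes were called in all. In F3 it was 0 in edgeR (10 in all) and 2 with DESeq2 (230 in all). It was 0 whichever F3 library was left out, where 7 to 41 genes were called in all. The count for the difference between generations was 1, where 122 genes were called in all, and 0 to 3 when each library was left out. The count of 3 (Ccnd1, Cdkn1b and Cdk4) came without F1 chlordecone 2, where 2320 genes were called in all. No replicate pairing is stated in the labels. A replicate block gave 1 call in F1 (Ccnd1, 1.79, adjusted p = 0.0105 in edgeR, with 322 genes called in all). It gave 0 in F3 and 1 in the difference (-2.45, adjusted p = 0.0383 in edgeR). In F1 block 3 had no control, so chlordecone 3 added nothing to the blocked difference. For the difference between generations, F1 and F3 libraries of the same number shared a block, though nothing links them. Same-number correlations of deviations in F3 were 0.195, -0.0525 and -0.0502, and those of the other pairs ran from -0.291 to 0.310. These values do not settle whether the numbers pair samples.

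Leaving out each library, the F1 median log2 fold change ranged from 0.20 to 0.49 for G1 genes, from 0.23 to 0.83 for inhibitors, from 0.020 to 0.16 for S phase and from -0.87 to -0.077 for G2 and M phase. The F3 median ranged from -0.12 to 0.080 for G1 genes, from -0.71 to -0.19 for inhibitors, from -0.055 to 0.20 for S phase and from -0.66 to 0.21 for G2 and M phase. Without F1 chlordecone 1 and 3 together, chosen after seeing the data, the medians were 0.077 for inhibitors, -0.082 for S phase and 0.35 for G2 and M phase, and Cdk4 (-0.16), Cdkn1b (-0.051), Tk1 (-0.87), Tyms (-0.082) and Cdc20 (0.28) changed sign. Other size factors and filters on low counts changed no call of a member and no sign of a median, except that of F3 G1 genes, which was -0.030 at a mean of at least 1 CPM.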

Other observations

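Some members stood at very different levels in the 2 tables, which were made separately, so these values are descriptions. Ccne2, cyclin E2, was at 23.1 to 28.8 CPM in the 5 F1 libraries and at 0.368 to 0.679 CPM in the 6 F3 libraries, and its exons overlap Ints8 on the other strand. Cdkn2c was at 16.9 to 34.4 CPM in F1 and 1.94 to 3.52 CPM in F3, and Ccna2 at 15.3 to 19.9 and 1.5 to 4.06 CPM. Cdk4 went the other way, at 17.1 to 40.1 CPM in F1 and 105 to 122 CPM in F3. The D-type cyclins were not all alike: Ccnd2 was higher in F1 (8.58 to 25.1 against 3.77 to 9.60 CPM) and Ccnd3 lower (23.9 to 35.3 against 77.2 to 104 CPM).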
